A study of Mus musculus with 2 samples.

Results

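Mir199a-1, Mir199a-2, Mir199b and Mir214 are the mouse genes for the microRNAs (miRNAs) miR-199a, miR-199b and miR-214. They were taken by their Ensembl identifiers, matched to GENCODE names, and all 4 were among the 1973 miRNA genes listed in the 2 count tables. The tables come from microRNA-seq, the sequencing of short RNA, on whole hearts of healthy B6NCrl mouse embryos at embryonic day 16.5 (E16.5), with males and females pooled. There is 1 group, with 2 libraries given as biological replicates. Replicate 2 was made from 41 embryos, and replicate 1 from a pool whose size is not stated in the sources used here. No animal was treated or carried an engineered allele per the labels, so the data address how much of each miRNA the fetal heart libraries held and how far the 2 pools differed.

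A miRNA gene is transcribed as a long precursor that holds a hairpin. The hairpin is cut into a duplex of a 5p arm and a 3p arm, and an arm loaded into an Argonaute protein pairs with target messages through its seed, bases 2 to 8. The miR-199 and miR-214 genes are known from mesenchymal cells such as fibroblasts and from the developing skeleton, and miR-199a and miR-214 have been studied in heart muscle and in cardiac fibrosis. The arms are called miR-199a-5p, miR-199a-3p, miR-199b-5p, miR-199b-3p, miR-214-5p and miR-214-3p.

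The arms listed in RefSeq (GRCm38.p6, the assembly also called mm10) are shown because several of them are the same in more than one gene, and reads matching several places stand apart from the gene counts. Capitals mark the seed.
miR-199a-5p: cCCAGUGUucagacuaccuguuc
miR-199a-3p: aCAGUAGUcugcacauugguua
miR-199b-3p: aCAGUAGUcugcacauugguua
miR-214-5p: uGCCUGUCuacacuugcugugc
miR-214-3p: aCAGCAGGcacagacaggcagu

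The 3p arm of 22 bases was identical in Mir199a-1, Mir199a-2 and Mir199b. The 5p arm of 23 bases was identical in Mir199a-1 and Mir199a-2. Neither arm of Mir214 occurred in any other of the 1005 RefSeq mouse hairpins. The 4 distinct arms that RefSeq listed for the group had 4 different seeds. The miR-199b-5p arm was not listed there and is not counted. Only the seed of miR-214-3p, CAGCAGG, was found in an arm of a further gene, miR-761 of Mir761, which had 0 sense counts in both libraries.

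The difference between the 2 miR-199 types lies in the 5p arm. Laid along the Mir199b hairpin without gaps, miR-199a-5p matched 22 of 23 bases at chr2:32318485-32318507 on the plus strand. The substitution was C10U, counted from the 5′ end of the arm, and lay outside the seed. Capitals mark the substituted base in both lines.
miR-199a-5p: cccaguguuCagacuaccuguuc
Mir199b hairpin: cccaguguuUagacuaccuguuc

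The 4 hairpins show how much of each gene is its own. Capitals mark bases inside any 20-base window that also occurs in another RefSeq mouse hairpin.
Mir199a-1: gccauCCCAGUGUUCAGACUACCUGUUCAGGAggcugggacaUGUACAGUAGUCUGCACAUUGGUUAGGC
Mir199a-2: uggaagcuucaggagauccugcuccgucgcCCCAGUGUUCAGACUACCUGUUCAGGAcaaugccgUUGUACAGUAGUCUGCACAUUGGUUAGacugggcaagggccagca
Mir199b: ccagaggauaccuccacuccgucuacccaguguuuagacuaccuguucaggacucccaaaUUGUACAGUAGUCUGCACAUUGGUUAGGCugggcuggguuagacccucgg
Mir214: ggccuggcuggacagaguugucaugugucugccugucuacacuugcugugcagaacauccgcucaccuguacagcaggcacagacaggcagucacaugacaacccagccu

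In Mir199a-1 such windows covered 55 of 70 bases, or 78.6%. They covered 54 of 110 bases (49.1%) in Mir199a-2 and 29 of 110 (26.4%) in Mir199b. The Mir214 hairpin had none, and its longest stretch in common with any of the 1004 other hairpins was 13 bases. Each shared window of the miR-199 hairpins was found only in the other miR-199 hairpins. Mir199a-1 and Mir199a-2 had a stretch of 27 bases in common over the 5p arm and one of 26 bases over the 3p arm. Mir199b had a single stretch in common with each of them, over the 3p arm, of 28 bases with Mir199a-1 and 27 bases with Mir199a-2. The order from the most to the least shared sequence was thus Mir199a-1, Mir199a-2, Mir199b and Mir214.

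**Figure D1:**
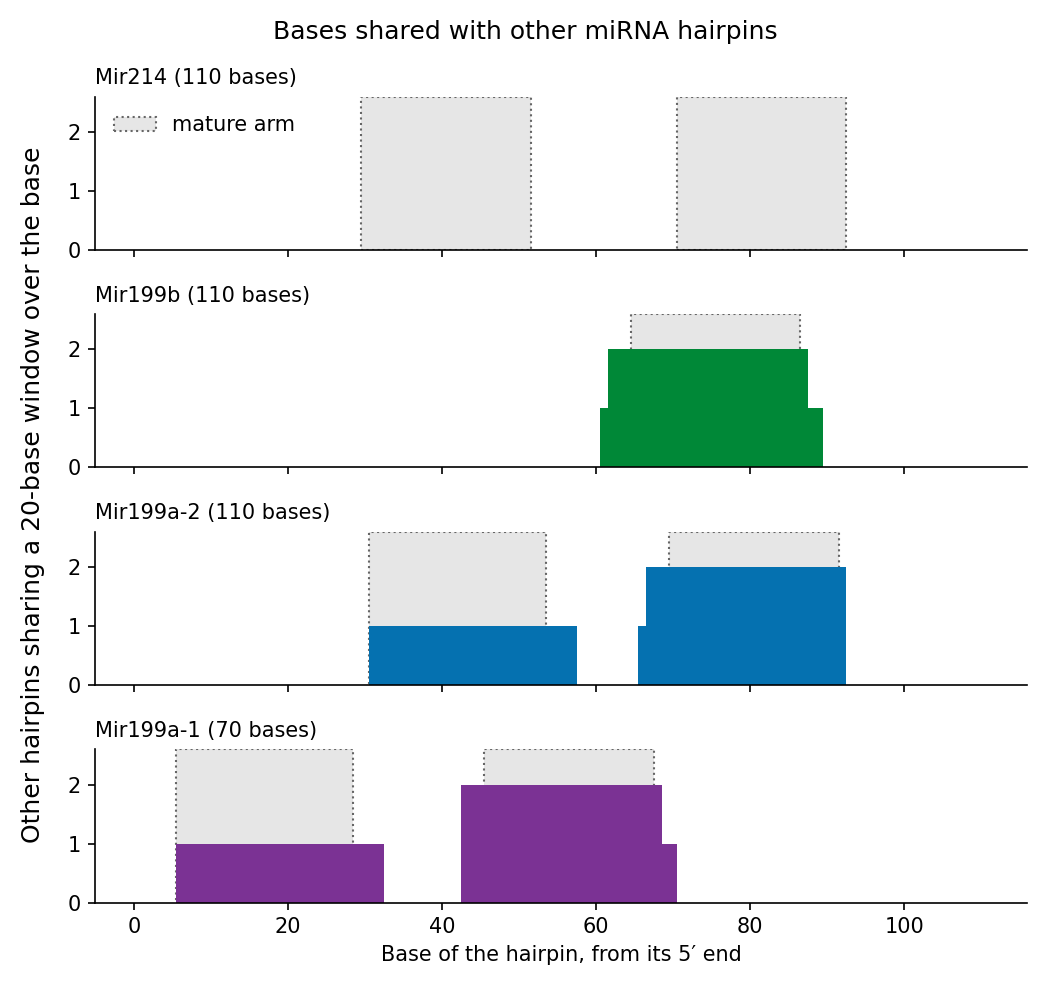
Bases that the 4 hairpins have in common with other mouse miRNA hairpins. The x axis is the base of the hairpin from its 5′ end, bars give the highest number of other hairpins that hold a 20-base window over that base, and grey boxes are the listed mature arms. Mir214 has no shared base, Mir199b is shared only around its 3p arm, and both arms of Mir199a-2 and Mir199a-1 are shared.

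All 4 genes lie within genes for dynamins, the GTPases that pinch off membrane vesicles, on the strand opposite to them. Mir199a-2 (ENSMUSG00000070126.1; mm10 chr1:162217814-162217923, plus strand) and Mir214 (ENSMUSG00000065516.1; chr1:162223368-162223477, plus strand) start 5554 bases apart. Both lie in the non-coding gene Dnm3os (chr1:162217623-162225550, plus strand), the known common precursor of the pair. Mir199a-2 overlapped an exon in each of the 5 Dnm3os transcripts that span it, and Mir214 in each of 3. Dnm3os itself lies inside Dnm3, which is read from the minus strand, and neither miRNA overlapped a Dnm3 exon. Mir199b (ENSMUSG00000092807.1; chr2:32318460-32318569, plus strand) was opposite an intron of Dnm1. Mir199a-1 (ENSMUSG00000065547.1; chr9:21496495-21496564, minus strand) was opposite an intron of Dnm2. GENCODE M21 gave neither of these a host gene of its own strand.

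The tables held 6473482 sense counts at miRNA genes in replicate 1 and 5841568 in replicate 2. Levels are given as CPM, the sense counts of a gene per 1000000 sense counts of its library. Reads matching several places stand on a line of their own in each table, outside the gene rows, and numbered 4482590 in replicate 1 and 4105896 in replicate 2. No count of such reads per gene is given, so how many of them came from the miR-199 arms was not tested. A count of 0 allows up to 3 counts, or 0.463 CPM in replicate 1 and 0.514 CPM in replicate 2. Intervals and this limit cover counting error only, since reads without molecular identifiers are not independent molecules. Of the cardiac muscle markers, Mir208b, within the beta myosin gene, stood at 59090 and 57432 CPM. The muscle genes Mir1a-1 (19 and 11 counts) and Mir133a-1 (19 and 14) lay under 3 CPM in both libraries, Mir133a-2 had 0 and 3 counts, and Mir1a-2 was not matched to any row. Gene rows leave out reads matching several places, so these low counts do not show that the miRNAs were scarce. The cardiac sum can miss reads for the same reason. Summed levels were 67709 and 67125 CPM for the cardiac list and 85979 and 84356 CPM for the endothelial list, most of it Mir126a. Mir208a of the alpha myosin gene stood at 6028 and 7084 CPM and the endothelial Mir221 at 69.2 and 99.1 CPM. Markers of other tissues summed to 5240 and 4073 CPM for epithelium, 2037 and 1719 for red cells, 586 and 717 for leukocytes, 159.9 and 161 for liver (Mir122) and 2.47 and 0.171 for neurons. Of the 6 neural genes, Mir124-1, Mir124-2 and Mir9-1 were not matched and Mir124a-3 and Mir9-2 were at 0 in both libraries. Both arms of Mir9-2 and Mir9-3 occur in another hairpin, so the neural sum can miss reads. Mir486a of the red cell list and Mir142 of the leukocyte list were not matched to any row. A gene named Mir486 stood at 81.1 and 85.9 CPM and is not in the red cell sum. In whole tissue, fewer cells of a type and less RNA per cell cannot be told apart.

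Mir214 was the highest of the 4 genes. It had 15906 sense counts in replicate 1 and 11729 in replicate 2, which are 2457 CPM (95% Wilson interval 2419 to 2496) and 2008 CPM (1972 to 2044). The mean was 2232 ± 318 CPM (SD, n = 2), rank 53 of the 1973 listed genes. Replicate 1 was the higher library and the intervals did not overlap.

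Mir199b, the copy with a 5p arm of its own, came next. It had 2486 and 2586 counts, or 384 CPM (369 to 399) in replicate 1 and 443 CPM (426 to 460.1) in replicate 2. Its mean of 413 ± 41.5 CPM (SD, n = 2) put it at rank 111. Here replicate 2 was the higher library, again with intervals apart.

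Mir199a-2, the partner of Mir214 in Dnm3os, had 261 and 240 counts. These are 40.3 CPM (35.7 to 45.5) and 41.1 CPM (36.2 to 46.6), a mean of 40.7 ± 0.54 CPM (SD, n = 2) at rank 227. The 2 libraries lay within each other's intervals. Mir199a-1 had 6 counts in replicate 1 and 17 in replicate 2, or 0.927 CPM (0.425 to 2.02) and 2.91 CPM (1.82 to 4.66). With fewer than 10 counts in one library it fell under the detection limit, and its mean was 1.92 ± 1.40 CPM (SD, n = 2). The rank order Mir214, Mir199b, Mir199a-2, Mir199a-1 held in both libraries, and each step between neighbours was larger than the spread between libraries.

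**Figure D2:**
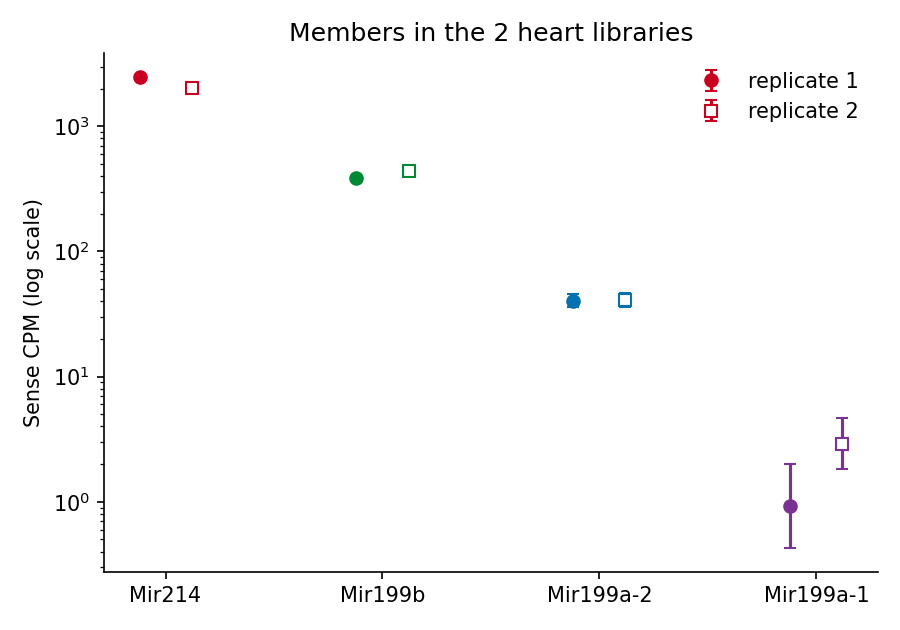
Sense CPM of each gene in replicate 1 (filled circles) and replicate 2 (open squares), on a log scale, with 95% Wilson intervals of the counts as bars. Mir214 lies near 2000 CPM, Mir199b near 400, Mir199a-2 near 40 and Mir199a-1 under 5, in the same order in both libraries.

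Together the 4 genes held 18659 and 14572 counts. That is 0.288% of sense counts in replicate 1 (0.284 to 0.292) and 0.249% in replicate 2 (0.245 to 0.254). Mir214 made up 85.2% and 80.5% of this sum. Among the 3 miR-199 genes, with 2753 and 2843 counts, Mir199b made up 90.3% and 91.0%. The counts placed at a single miR-199 gene were thus nearly all at Mir199b, the copy with the least shared sequence. Reads of the whole library that matched several places, whatever their source, outnumbered these counts 1628 to 1 and 1444 to 1. The number of them from miR-199 arms is not given, so their part in the miR-199 counts was not tested.

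On the opposite strand, all 4 genes had 0 counts in both libraries, so at most 3 counts each are allowed. Of the 231 listed genes with at least 200 sense counts in each library, 207 (89.6%) likewise had no opposite-strand count in either. No read counted at these loci came from the strand of the dynamin genes.

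The 2 miRNA genes of Dnm3os were far apart in the reads counted at them. Both arms of Mir199a-2 occur in other hairpins and neither arm of Mir214 does, and reads matching several places are not in these counts. A ratio of the 2 is thus one of gene counts, and how far it reflects the amounts of the miRNAs was not tested. Within a library, Mir214 exceeded Mir199a-2 by 60.9-fold in replicate 1 (exact 95% interval 53.9 to 69.1) and 48.9-fold in replicate 2 (43.005 to 55.8), a log2 ratio of 5.77 ± 0.23 (SD, n = 2). Both genes are 110 bases long, so the ratio is the same per length. Among 110 pairs of neighbouring detected miRNA genes on one strand that start within 10000 bases of each other, the median gap in mean level was 3.29 on the log2 scale. The gap of this pair was 5.78, and 19 pairs had a larger one. A wide gap in gene counts between neighbours was therefore common, and this pair was in the upper part of the range. Some of the 110 pairs also hold a gene with shared arms, such as Mirlet7a-1. Pairs that sit in one cluster share genes, so they are a description and carry no test.

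The miR-199 genes also differed in the reads counted at them. Reads of their shared arms that match several places stand outside these counts. Mir199b over Mir199a-1 was not among the pairs compared. Mir199b exceeded Mir199a-2 by 9.52-fold (8.38 to 10.9) and 10.8-fold (9.44 to 12.4), a log2 ratio of 3.34 ± 0.13 (SD, n = 2). Mir214 exceeded Mir199b by 6.40-fold (6.13 to 6.68) and 4.54-fold (4.35 to 4.73), a log2 ratio of 2.43 ± 0.35 (SD, n = 2). Mir199a-2 exceeded Mir199a-1 by 43.5-fold (19.7 to 120) and 14.1-fold (8.63 to 24.6), with wide intervals set by the 6 and 17 counts of Mir199a-1. For this last pair the log2 ratio was 4.63 ± 1.15 (SD, n = 2), and 3.98 after division by gene length, as the Mir199a-1 gene has 70 bases.

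Whether these ratios shifted between the pools was tested for the 4 pairs with a two-sided Fisher's exact test on the counts, adjusted over the 4. Mir214 over Mir199b was lower in replicate 2 by 0.50 on the log2 scale (adjusted p = 1.23e-28, Fisher's exact test). For Mir214 over Mir199a-2 the change was -0.32 (adjusted p = 0.0241, exact). The change for Mir199b over Mir199a-2 was 0.18 and did not pass (adjusted p = 0.190, exact). That of Mir199a-2 over Mir199a-1 was -1.62 (adjusted p = 0.0241, exact) on few counts. The pairs share genes, and the tests set counting error alone against the difference of 2 libraries.

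The libraries were also compared gene by gene over all 365 genes with at least 10 counts in each, by a two-sided exact binomial test given TMM-scaled library sizes and with Benjamini-Hochberg adjustment over all of them. Of the 4 genes, 3 passed the count minimum and 0 were called at an adjusted p under 0.05 with at least a 2-fold difference, beside 3.29% of all tested genes. With the minimum fold dropped, Mir199b passed as higher in replicate 2, Mir214 passed as lower and Mir199a-2 did not pass, beside 26% of all tested genes higher, 20.3% lower and 46.3% in either direction. The median log2 ratio of replicate 2 over replicate 1 was 0.053 over the 3 genes and 0.018 over all tested genes.

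Mir214 was 1.20-fold lower in replicate 2, a log2 ratio of -0.27 (95% interval -0.30 to -0.23) with an adjusted p of 3.3e-51 (exact binomial). Mir199b was 1.17-fold higher, at 0.23 (0.15 to 0.31; adjusted p = 5.34e-08, exact binomial). Mir199a-2 lay at 0.053 (-0.21 to 0.31; adjusted p = 0.799, exact binomial), an interval that lies inside a 2-fold difference in either direction. Mir214 and Mir199b therefore differed between the pools in opposite directions and by small amounts. Of 6 epithelial markers, 5 were lower in replicate 2 and 1 was higher at an adjusted p under 0.05. Their median log2 ratio was -0.49. Of all tested genes, 20.3% were lower and 26% higher. Of the 5 tested cardiac genes, 1 was higher and 1 lower. Among the 3 endothelial genes, 1 was higher and 0 were lower. Of the red cell markers, Mir451a was lower (-0.26) and Mir144 did not pass (-0.065). Mir486, outside the list as matched, did not pass either (0.11). Of the leukocyte markers, Mir155 (0.80) and Mir150 (0.50) were higher and Mir223 did not pass (0.045). The part of these cell types in the differences was not tested. The test counts reads only, and such sizes were common between these pools: 47 of 187 genes with a mean of at least 100 CPM had a larger absolute log2 ratio than Mir214, and 63 a larger one than Mir199b. The 2 genes of Dnm3os differed from each other in log2 ratio by 0.32, and 33 of the 110 neighbouring pairs by more.

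Mir199a-1 was not in this test. The exact interval of its log2 ratio ran from 0.27 to 3.31, higher in replicate 2. With a minimum of 5 counts in place of 10 it would be called (adjusted p = 0.0294, exact binomial), and with no minimum also (adjusted p = 0.0494, exact binomial). That call rests on 6 against 17 reads.

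**Figure D3:**
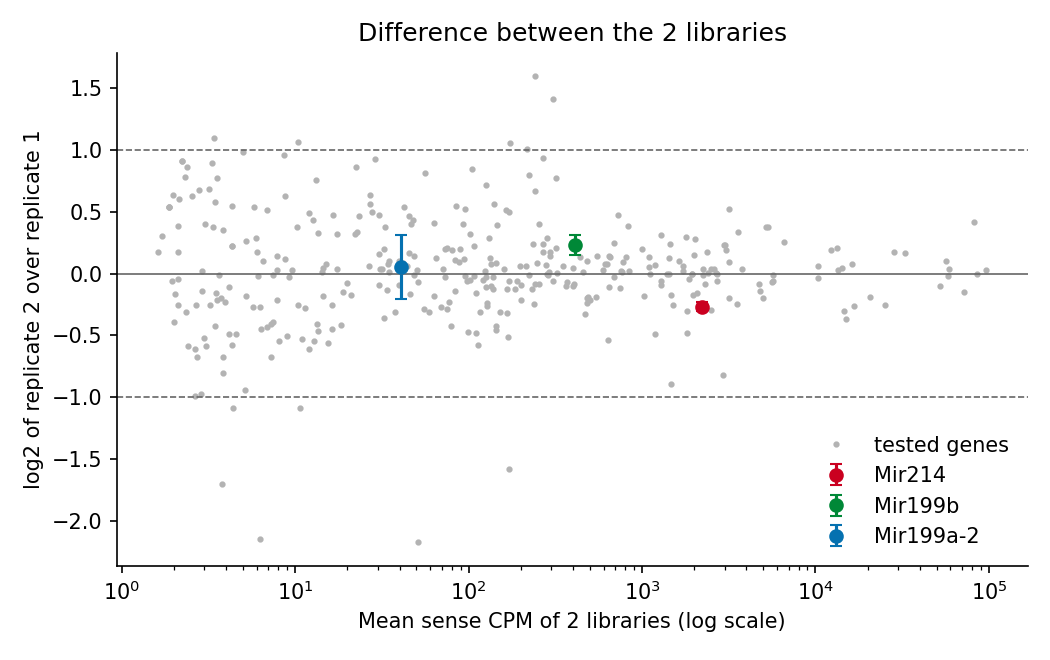
log2 of replicate 2 over replicate 1 against the mean CPM (log scale) for the 365 tested genes (grey), with Mir214, Mir199b and Mir199a-2 in colour and 95% exact intervals as bars. Dashed lines mark a 2-fold difference. All 3 genes lie well inside them, Mir214 at -0.27, Mir199b at 0.23 and Mir199a-2 at 0.053.

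Other miRNAs known from fibroblasts, smooth muscle and related mesenchymal cells place these levels. All 15 genes of that list were in the tables. Its leading gene, Mir143 of smooth muscle, stood at 96177 and 96669 CPM. Mir21a, induced in fibrosis, stood at 14148 ± 117 CPM, Mir22 at 10300 ± 321 CPM and Mir100 at 5703 ± 101 CPM (SD, n = 2 each). Mir140, a cartilage miRNA, at 3172 ± 771 CPM, and Mir10a, within a Hox cluster, at 2938 ± 1188 CPM (SD, n = 2 each), were the nearest list members above Mir214. Both had a larger SD than Mir214.

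Below Mir214 stood Mir10b at 1471 ± 141 CPM and Mir145a, the neighbour of Mir143, at 1288 ± 182 CPM. Mir125b-2, at 481 ± 17.3 CPM, was the list gene closest to Mir199b. Mir29a, which acts on collagen messages, was at 253 ± 46.6 CPM, Mir125b-1 at 247 ± 7.11 CPM, Mir152 at 131 ± 16.8 CPM and Mir29c at 64.6 ± 3.31 CPM (SD, n = 2 each). Mir29b-1 had 23 and 14 counts and Mir29b-2 had 8 and 7. So Mir199a-2 stood below 13 of the 15 list genes and above these last 2. Mir199a-1 was below both in replicate 1 and above both in replicate 2.

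Between the pools, 14 of the 15 list genes were tested. With the minimum fold dropped, 7 passed as higher in replicate 2 and 3 as lower, leaving 4 that did not pass, beside 26% of all tested genes higher and 20.3% lower. With the minimum fold 0 were called, beside 3.29% of all tested genes. The list's median log2 ratio was 0.063, beside 0.018 over all tested genes. The list held 13.7% and 13.6% of sense counts, beside 0.288% and 0.249% for the 4 genes. Both shares leave out reads matching several places, among them any from the shared miR-199 arms. How the amounts of the miRNAs compare was thus not tested. Mir143 alone made up 96423 of the list's mean sum of 136624 CPM. The median over the 14 tested list genes was 1380 CPM.

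**Figure D4:**
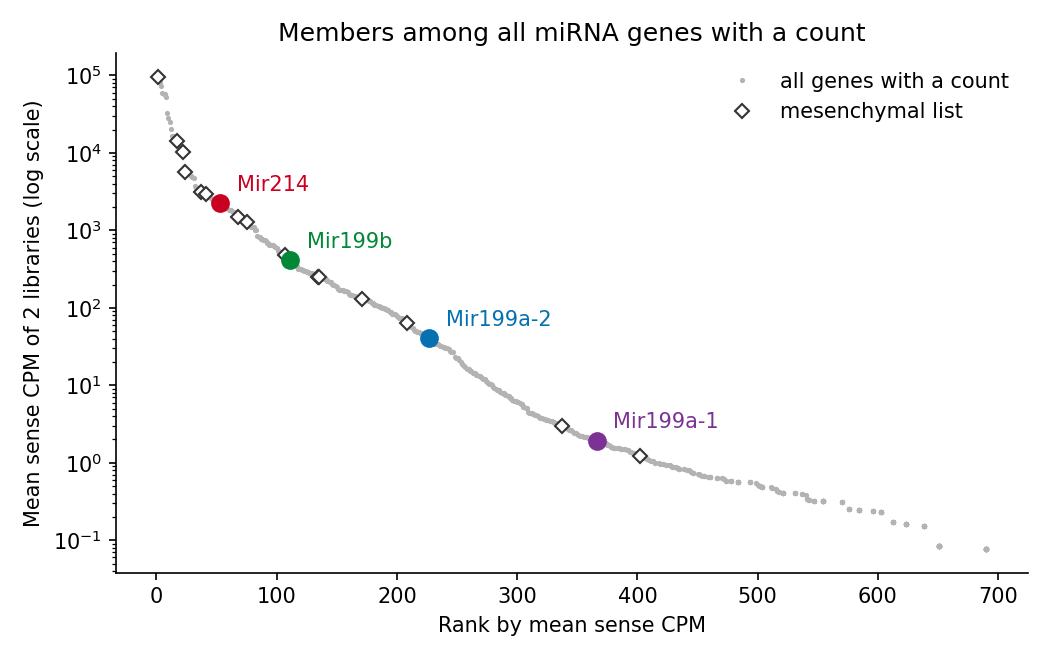
Mean sense CPM (log scale) of each miRNA gene with a count, against its rank. The 4 genes are coloured and the mesenchymal list is shown as open diamonds. Mir214 is at rank 53, Mir199b at 111 and Mir199a-2 at 227. Mir199a-1, at rank 366, lies between the 2 lowest genes of the list, Mir29b-1 (337) and Mir29b-2 (402).

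The detected genes nearest to each member were found by the Euclidean distance of log2(CPM + 1) over the 2 libraries. With only 2 values per gene this gives genes of like level in both pools and no more. Nearest to Mir214 were Mir296 (distance 0.15), at 2399 and 2224 CPM, Mir342 (0.17) and Mir15a (0.18). Nearest to Mir199b were the myeloid miRNA Mir223 (0.14), at 399 and 405 CPM, Mir185 (0.15) and Mir154 (0.23). Mir377 (0.055), at 38.8 and 40.9 CPM, Mir701 (0.069) and Mir679 (0.11) were nearest to Mir199a-2.

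The shared arms of the miR-199 genes can be set beside all listed genes. For 858 listed genes RefSeq gave a hairpin at the same place with at least 1 mature arm. In 775 of them no listed arm occurred in another RefSeq hairpin, and 273 of these (35.2%) were detected, with a median of 131 CPM among the detected. Arms and hairpins missing from RefSeq were not searched, so this class can hold genes that do share an arm. In 34 genes every listed arm occurred in another hairpin, and 6 (17.6%) were detected, with a median of 66.1 CPM. The 49 genes with a mixture had 34 detected (69.4%), with a median of 48.2 CPM. The detected share thus did not follow the order of sharing. Levels above 1000 CPM were found in 69, 4 and 0 genes of the classes with no, some and all arms shared.

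Mir199b is among the 34 genes only by its 3p arm, the one listed for it, and its hairpin differs from miR-199a-5p as shown above. With Mir199b left out, a step added after seeing the data, 5 of 33 genes (15.2%) were detected, with a median of 44.4 CPM, and the highest was Mirlet7a-1 at 128 CPM. Mir199a-2, with both arms shared, was exceeded by 4 genes of the class of 34, Mir199b among them, and Mir199a-1 by 7. Mir214, with no shared arm, was exceeded by 45 of the 775 genes of its class. In this class of 34 genes 24 had no count in either library, so Mir199a-1 with its 6 and 17 counts was among the minority that had any. How much of these differences comes from reads left uncounted was not tested.

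**Figure D5:**
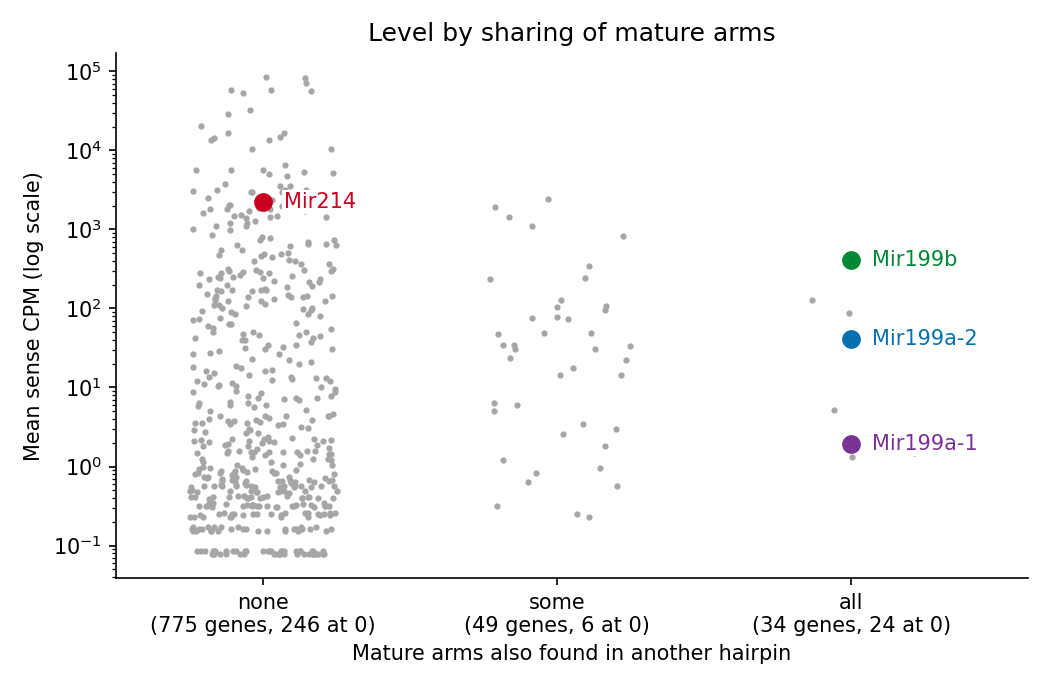
Mean sense CPM (log scale) of listed genes by whether none, some or all of their RefSeq mature arms occur in another hairpin. Each dot is a gene, genes without a count are given as a number under each class, and the 4 genes are coloured. Mir214 lies in the class with no shared arm, and Mir199a-2, Mir199a-1 and, by its 3p arm alone, Mir199b in the class with all arms shared, where no gene passes 1000 CPM.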

How the data were processed

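The deposited values are raw read counts per miRNA gene. The authors' file list names build mm10 and annotation M4 for them. For the aligner, counter and trimming nothing is given in the sources used here. Every table has 3 count columns, either strand and each strand alone, and 4 lines that name no gene (unmapped reads were 22.4% and 17.2% of reads, reads matching several places 29.5% and 31.9%), which stayed out of all totals. The larger strand column was taken as sense in both libraries.

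Names and coordinates came from GENCODE M21, which matched 1894 of 1973 genes, and sequences from RefSeq. edgeR 4.0.16 in R 4.3.3 gave TMM sizes. With 1 group its quasi-likelihood test had nothing to test, so the libraries were compared by exact binomial tests (scipy 1.17.1, Python 3.11.15), checked on simulated data with counting error only, which says nothing of differences between pools, with 0.5 added to counts for log2 ratios. Calls needed an adjusted p under 0.05 and 2-fold. Alternatives were DESeq2 1.42.0 size factors, total scaling, other totals, count minimums, strands, window lengths, division by gene length and leaving out a library. The named genes were the members, the 3 detected genes nearest to each, the mesenchymal list, and leading cardiac and endothelial genes. Mir761 was named for its seed after values were seen. The members and lists were chosen with earlier results of these data known. The comparisons of neighbouring genes and of arm classes were added after the counts were seen.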

Additional observations from a re-analysis of the deposited data

How the results depend on the processing

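The level of the 4 genes together, 2688 CPM, was 2975 CPM with Mir143 left out of the total and 1179 per 1000000 of all reads, and it ran from 2495 to 2882 CPM when a library was left out. The number of genes called between the libraries, 12, was 21 with no filter on low counts and 169 with no minimum fold. The log2 ratios of Mir214 (-0.30 to -0.27), Mir199b (0.20 to 0.23) and Mir199a-2 (0.019 to 0.053) kept their direction and their side of an adjusted p of 0.05 under each scaling, count minimum and added count tried. Of the settings tried for the 4 ratios between genes, adding strands changed none, since the opposite strand held 0 counts, and gene length changed only Mir199a-2 over Mir199a-1 (log2 ratio 4.63, and 3.98 per length). Leaving out a library leaves the value of the other one and is no test of stability. With 2 libraries of 1 group the p-values show counting error only. No paired analysis was possible because there is 1 group.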
